A study of Mus musculus with 30 samples.

Results

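The response of lincRNA-Cox2 mutant lung to lipopolysaccharide (LPS) was read from 2 groups of libraries in the lung table. The first group is mutant lung 6 h after an intraperitoneal injection of LPS at 20 mg/kg (3 libraries), and the second is mutant lung with PBS (2 libraries), for which the labels give no time. Together these are 5 of the 30 libraries of the series. All mice were C57BL/6 and 8 weeks old. Knockout lung with LPS (3 libraries) and PBS (2), and wild type lung with LPS (3) and PBS (2), had the same dose, time and age and are set beside the mutant where they differ. The labels call the line lincRNA-Cox2 mutant and say no more about the lesion, and they do not say that libraries are separate animals. Each value is the authors' mean of normalized counts over the libraries of a group, so a spread between libraries could not be computed and the change with LPS was not tested.

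Every row of the lung table with a mean of 10 or more in either mutant group was kept, which left 15092 of 19470 rows. The response of a row is the log2 ratio of its LPS mean to its PBS mean, after adding 1 to both, and a ratio of at least 2-fold is counted as past the fold. Some symbols are on several rows, so rows are counted and not genes. A row that reached a mean of 10 only with LPS could not count as lower. A row that reached it only with PBS could not count as higher. Counts and medians of gene lists depend in part on this. At the edge of the rule, 136 rows had a larger mean between 10 and 11 and 159 rows left out had one between 9 and 10.

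LPS, a component of the outer membrane of Gram-negative bacteria, is recognised by Toll-like receptor 4 with Cd14 and Ly96. One adaptor branch, through Myd88, activates NF-kB and the transcription of cytokines and chemokines, and the other, through Ticam1, leads to type I interferon and the genes it induces. In the lung the capillary endothelium takes up inflammatory signals from the blood early, binds neutrophils and loses part of its resting programme. LincRNA-Cox2 lies beside Ptgs2, which encodes the inducible cyclooxygenase, and is known as a noncoding RNA that LPS induces in macrophages.

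The targeted transcript was listed at 0 in mutant lung with LPS and with PBS, and likewise in knockout lung. In wild type lung lincRNA-Cox2 averaged 30.2 with LPS and 34.8 with PBS. The authors' deposited table gives a log2 fold of -4.77 for mutant over wild type lung with LPS (adjusted p = 1.67e-06) and of -4.83 with PBS (adjusted p = 3.9e-06). Ptgs2, its neighbour on chromosome 1, averaged 1058 with LPS and 154 with PBS in mutant lung, a log2 ratio of 2.77. That is a 6.86-fold higher mean, with a 95% interval of 6.20 to 7.61 that covers counting error only. The ratio was 3.10 in knockout lung and 2.88 in wild type lung. The LPS mean itself was 1058 in mutant, 208 in knockout and 1397 in wild type lung, and the authors' deposited table gives a log2 fold of -0.39 for mutant over wild type (adjusted p = 0.972). Among the other neighbours, Rgs1, a regulator of G protein signalling in leukocytes, averaged 353 with LPS and 17.6 with PBS, and Hmcn1, an extracellular matrix protein, averaged 317 with LPS and 1380 with PBS.

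Library totals, estimated from the steps that single reads leave in low means, were 8.63 to 10.7 M reads for the 3 LPS libraries and 7.54 to 17.3 M for the 2 PBS libraries of mutant lung. A count of 3 reads corresponds to a mean of 1.22 with LPS and 1.48 with PBS, and serves as the floor where a group is at 0. Sex-linked transcripts set the mutant groups apart. The Y chromosome genes Uty and Ddx3y averaged 0.329 and 4.73 with LPS and 70.1 and 317 with PBS. Xist, the RNA of the inactive X chromosome, averaged 4510 with LPS and 3300 with PBS. The mutant LPS libraries thus carried almost no Y transcripts and the PBS libraries carried both kinds. In knockout lung Xist averaged 23.2 with LPS and 1910 with PBS, and in wild type lung 14.5 with LPS and 3660 with PBS, so there the Xist transcripts were in the PBS libraries. Treatment and the sex-linked transcripts therefore cannot be told apart within a genotype, and they ran in opposite directions in mutant and wild type lung. Over the 14131 rows placed on autosomes 15.6% were at least 2-fold higher and 15.6% at least 2-fold lower.

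With LPS, 2336 rows of mutant lung were at least 2-fold higher (15.5% of those tested) and 2420 rows at least 2-fold lower (16.0%). The far end of the response was mostly upward. At least 16-fold differences were found in 263 rows upward and 45 downward, and at least 64-fold in 52 upward and 2 downward, Ankrd63 and the Y chromosome gene Eif2s3y. Rows past the fold upward held 37.7% of the sum of means with LPS and 12.2% with PBS, while rows past it downward held 2.81% with LPS and 12.4% with PBS. The median log2 ratio over all rows was -0.03. Of the rows just inside 2-fold, within 0.05 on the log2 scale, there were 97 upward and 151 downward, and just outside it 143 and 138. The sum of all means was 10.5 M with LPS and 7.44 M with PBS, a log2 ratio of 0.50. If both groups are scaled to the same sum, 1483 rows are at least 2-fold higher and 4462 at least 2-fold lower, so the split between the directions depends on the authors' normalization.

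**Figure D1:**
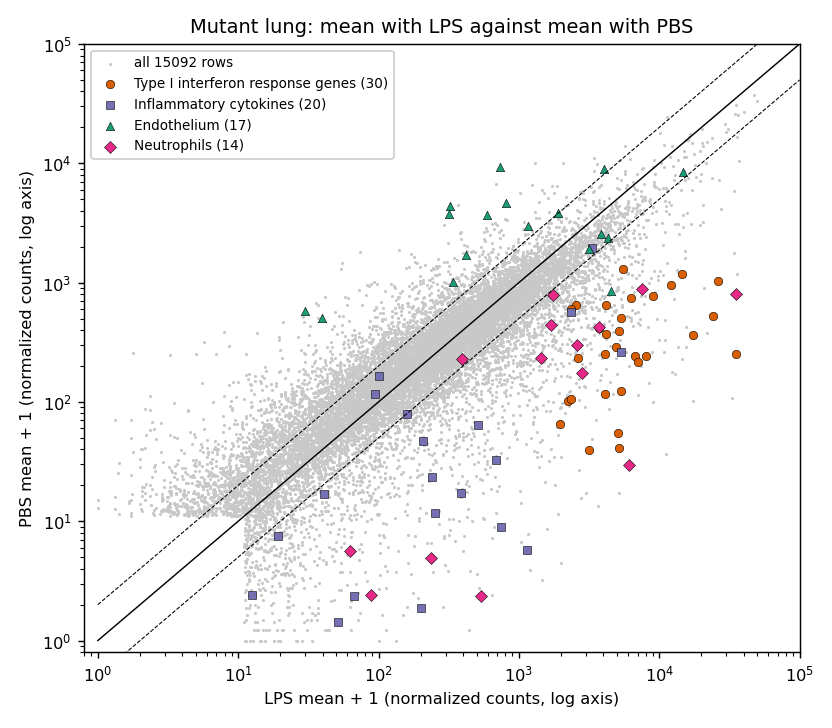
Mean of 3 LPS libraries (x axis) against mean of 2 PBS libraries (y axis) of mutant lung, in the authors' normalized counts plus 1 on log axes. Grey points are the 15092 rows, coloured points 4 gene groups with the number of members tested, the solid line equality and the dashed lines 2-fold; all 30 interferon response genes lie below the lower dashed line and 12 of 17 endothelial markers above the upper one.

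The 10 highest ratios of mutant lung belonged to chemokines, a growth factor, acute phase proteins, an antimicrobial peptide and an enzyme. Csf3, the granulocyte colony-stimulating factor, averaged 1460 with LPS and 2.21 with PBS (log2 ratio 8.83). The PBS mean rests on about 6 reads, and the counting interval of the fold runs from 303 to 1801. The chemokines of the group all lie on chromosome 5. Cxcl11, which attracts T and NK cells through Cxcr3, averaged 2000 with LPS and 3.48 with PBS (8.80). Cxcl10, a ligand of the same receptor, averaged 33200 with LPS and 106 with PBS (8.28). Cxcl9, another ligand of it, averaged 11100 with LPS and 35.4 with PBS (8.25). Cxcl2 and Cxcl3 attract neutrophils through Cxcr2. For Cxcl2 the means were 3680 with LPS and 12.5 with PBS (8.09). For Cxcl3 they were 441 with LPS and 0.215 with PBS, where the PBS mean is 1 read, and the ratio of 2051 has a counting interval from 367 to 81084.

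The other 4 of the 10 highest were Saa1, Saa2, Camp and Irg1. Saa1 and Saa2 encode serum amyloid A, an acute phase protein of blood. The mean of Saa1 was 1190 with LPS and 2.90 with PBS, and that of Saa2 was 642 with LPS and 1.42 with PBS. Irg1 encodes the enzyme that makes itaconate in activated macrophages, and averaged 5150 with LPS and 16.1 with PBS (8.23). Camp, the cathelicidin stored in neutrophil granules, averaged 533 with LPS and 1.35 with PBS (7.83).

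The 10 lowest ratios, leaving out Xist, Tsix and Y chromosome transcripts, were of genes with moderate means under PBS. Ankrd63, an ankyrin repeat gene, averaged 0.79 with LPS and 257 with PBS, the lowest ratio of mutant lung (-7.17). Its LPS mean is about 2 reads, so its PBS mean was 325 times the LPS mean with a counting interval from 89.7 to 2691. The same gene had ratios of -5.70 in knockout and -5.21 in wild type lung. Glp1r, the receptor of glucagon-like peptide 1, averaged 7.57 with LPS and 295 with PBS (-5.11), and was 39.0 times as high with PBS (interval 25.1 to 64.1). Map2k6, a kinase upstream of p38, averaged 1.42 with LPS and 67.4 with PBS (-4.82). Wscd1 averaged 6.93 with LPS and 387 with PBS (-5.61), and Kif26a, a kinesin family member, averaged 5.90 with LPS and 249 with PBS (-5.18). The ratios of these genes were below -4 in all 3 genotypes. Cml3, Lrrc17, Dclk3 and 4930578C19Rik had ratios from -5.32 to -4.81, and Ucp1 completes the group.

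Ucp1, the uncoupling protein of brown fat, was the exception among the lowest ratios. It averaged 0.711 with LPS and 69.8 with PBS in mutant lung (-5.37), but 17.4 with LPS and 3.46 with PBS in knockout lung, and 2.44 with LPS while listed at 0 with PBS in wild type lung. Other fat genes were lower with LPS in mutant lung as well, with Adipoq, which encodes adiponectin, at 21.3 with LPS and 105 with PBS. Of 11 fat genes tested, from a list added after the values had been seen, 6 were at least 2-fold lower in mutant lung, with a median of -1.91, against 0.30 in knockout and -0.17 in wild type lung. The summed mean of the list was 908 with LPS and 2067 with PBS in mutant lung. The part of fat tissue in the libraries in the lower ratios was not tested.

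**Figure D2:**
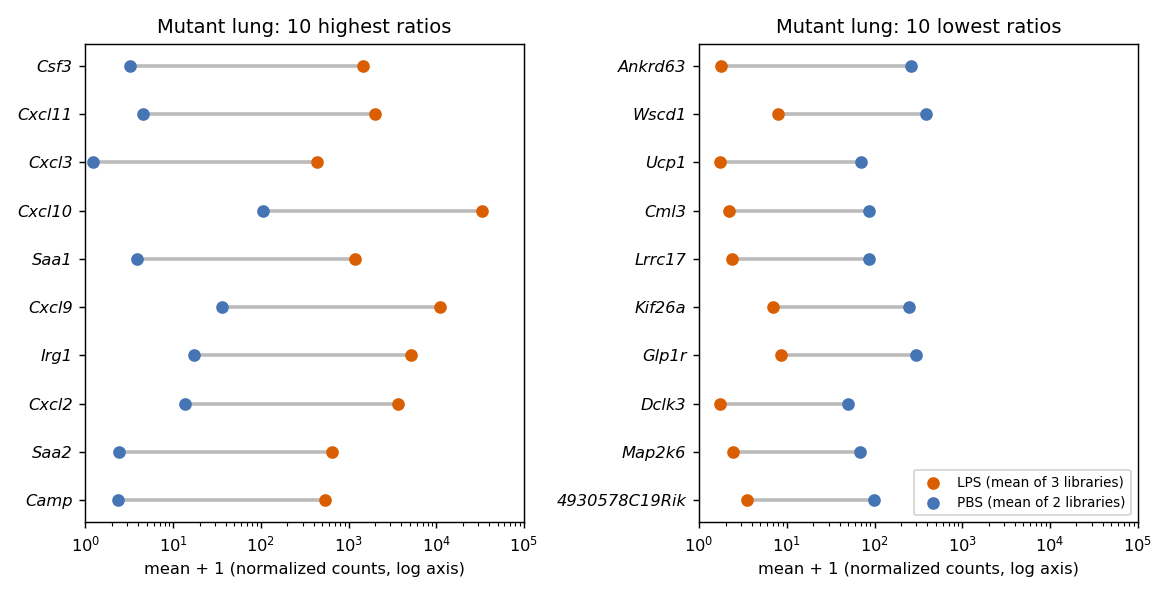
Authors' mean normalized counts plus 1 (log axis) of the 10 highest (left) and 10 lowest (right) log2 ratios of mutant lung, with Xist, Tsix and Y chromosome transcripts left out. Orange points are the means of 3 LPS libraries and blue points the means of 2 PBS libraries; the highest ratio is that of Csf3 (8.83) and the lowest that of Ankrd63 (-7.17).

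To show the regulatory sequence of genes at both ends of the response, promoters were taken from RefSeq (GRCm38.p6), from 250 bases before to 50 bases after the annotated start of each gene, and read 5′ to 3′ along the gene. Capitals mark the core of the interferon-stimulated response element (GAAA, any 2 bases, GAAA) and an NF-kB site (GGGAA, any 3 bases, CC), each searched on both strands. Cxcl10 and Rsad2 were chosen as genes with both kinds, Cxcl2 for the NF-kB site, Ifit1 for the interferon element and Glp1r from the lower end.
Cxcl10 promoter (chr5:92348840-92349139, minus strand): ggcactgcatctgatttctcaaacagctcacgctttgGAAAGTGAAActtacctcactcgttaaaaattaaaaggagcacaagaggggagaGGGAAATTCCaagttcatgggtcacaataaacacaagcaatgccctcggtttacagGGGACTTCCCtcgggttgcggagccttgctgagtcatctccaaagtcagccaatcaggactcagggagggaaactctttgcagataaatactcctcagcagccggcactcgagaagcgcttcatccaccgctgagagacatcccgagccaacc
Cxcl2 promoter (chr5:90903649-90903948, plus strand): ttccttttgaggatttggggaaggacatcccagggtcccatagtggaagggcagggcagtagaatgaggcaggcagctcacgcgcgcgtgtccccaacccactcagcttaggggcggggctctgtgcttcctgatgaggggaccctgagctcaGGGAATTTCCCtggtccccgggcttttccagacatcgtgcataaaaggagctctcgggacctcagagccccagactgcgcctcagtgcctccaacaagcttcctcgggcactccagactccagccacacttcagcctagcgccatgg
Ifit1 promoter (chr19:34640639-34640938, plus strand): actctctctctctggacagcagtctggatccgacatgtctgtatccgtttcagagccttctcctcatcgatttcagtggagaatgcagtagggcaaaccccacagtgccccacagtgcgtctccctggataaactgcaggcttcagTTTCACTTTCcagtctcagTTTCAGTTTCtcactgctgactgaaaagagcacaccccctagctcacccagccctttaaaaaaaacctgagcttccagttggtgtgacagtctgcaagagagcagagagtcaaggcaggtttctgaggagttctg
Rsad2 promoter (chr12:26456403-26456702, minus strand): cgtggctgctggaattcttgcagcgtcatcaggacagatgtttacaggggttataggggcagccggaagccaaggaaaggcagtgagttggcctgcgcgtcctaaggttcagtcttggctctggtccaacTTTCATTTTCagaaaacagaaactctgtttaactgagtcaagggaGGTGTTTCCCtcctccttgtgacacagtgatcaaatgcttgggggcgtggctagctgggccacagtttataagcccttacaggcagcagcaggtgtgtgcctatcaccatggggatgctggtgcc
Glp1r promoter (chr17:30901617-30901916, plus strand): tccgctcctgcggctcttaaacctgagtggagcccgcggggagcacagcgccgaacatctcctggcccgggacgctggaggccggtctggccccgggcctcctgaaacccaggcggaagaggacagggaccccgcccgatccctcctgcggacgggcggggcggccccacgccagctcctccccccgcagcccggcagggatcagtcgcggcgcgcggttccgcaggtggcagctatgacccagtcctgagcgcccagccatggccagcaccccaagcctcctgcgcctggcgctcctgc

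The Cxcl10 window holds an interferon element that begins 213 bases before the start and NF-kB sites that begin 159 and 103 bases before it. In the Cxcl2 window the NF-kB matches begin 97 and 96 bases before the start, overlap and lie on opposite strands. Ifit1 holds interferon elements beginning 104 and 85 bases before its start, both on the strand opposite to the gene. Rsad2 holds an interferon element at 120 bases and an NF-kB match at 75 bases before the start, again on the opposite strand. The Glp1r window has no match to either motif.

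Of the 15092 rows, 77.0% matched a promoter entry, which gave 11461 genes. The interferon element was in 19.8% of the 187 promoters of genes at least 16-fold higher with LPS, in 7.71% of the 1725 at least 2-fold higher and in 1.31% of the 1752 at least 2-fold lower. The share over all 11461 was 3.19%. For the NF-kB site the shares were 16.0%, 8.93% and 5.48% in the same order, against 6.79% of all. The AP-1 site (TGANTCA, not marked), also searched on both strands, was in 19.8%, 9.22% and 4.05%, against 5.51% of all. Among the 21 type I interferon response genes with an entry 11 held the interferon element, and among 13 NF-kB subunits and feedback inhibitors 7 held the NF-kB site. A match is a run of letters and does not show that a factor binds there.

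The genes of LPS recognition were mostly higher with LPS. Of 13 genes of the receptor complex and its adaptors 8 were at least 2-fold higher and the median ratio was 1.16, against -0.03 over all rows. Cd14, which passes LPS to the receptor, averaged 7400 with LPS and 198 with PBS (5.22). Irak3, a kinase-like inhibitor of the pathway, averaged 1790 with LPS and 149 with PBS (3.58). Myd88 averaged 2970 with LPS and 334 with PBS (3.15). The receptor gene itself, Tlr4, was close to the limit at 310 with LPS and 152 with PBS (1.02). Ticam1 and Ticam2, the adaptors of the interferon branch, had ratios of 0.56 and -0.89.

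NF-kB subunits and the inhibitors that NF-kB itself induces were higher, 15 of 16 by at least 2-fold, with a median of 3.08. The highest ratio was that of Tnfaip3, which encodes the ubiquitin-editing protein A20 that ends the signal, at 8880 with LPS and 260 with PBS (5.09). Nfkbia, the inhibitor that holds NF-kB in the cytoplasm, averaged 11400 with LPS and 1460 with PBS (2.96). Among the subunits, Rel averaged 231 with LPS and 25.7 with PBS (3.12), and Rela, the least changed of them, 2060 with LPS and 850 with PBS (1.28). Cyld, a deubiquitinase, was inside the fold at 0.38. Of the SOCS family, feedback inhibitors of cytokine receptors, 4 of 8 were past the fold, with Socs1 at 550 with LPS and 16.1 with PBS (5.01) and Socs3 at 6120 with LPS and 199 with PBS (4.94).

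Of 23 inflammatory cytokine genes 20 passed the minimum mean and 17 of these were at least 2-fold higher, with a median of 3.18. Among the 17, Il6, Il10, Il17a, Il23a, Il27, Ifng and Lta reached the minimum mean only with LPS. Il6 averaged 1140 with LPS and 4.70 with PBS (7.65). Il10, an anti-inflammatory cytokine, averaged 199 with LPS and 0.86 with PBS (6.75), where the PBS mean is about 4 reads and the counting interval of the fold runs from 89.8 to 852. Ifng, the interferon of T and NK cells, averaged 744 with LPS and 8.03 with PBS (6.37). The first cytokines of the pathway had smaller ratios. Tnf averaged 253 with LPS and 10.7 with PBS (4.44), and Il1b 5300 with LPS and 259 with PBS (4.35). Ltb and Clcf1 had ratios of -0.31 and -0.72, inside the fold. Il12b, Il11 and Ifnb1 did not reach the minimum mean, and Ifnb1 was listed at 0 in both mutant groups. Of 6 genes listed as decoys and antagonists of interleukin 1, which include the signalling receptor Il1r1 (1.89) and its partner Il1rap (1.45), 5 were higher. The inhibitors among these 5 were Il18bp (3.45), Il1rn (9080 with LPS and 98.9 with PBS) and the decoy receptor Il1r2 (3300 with LPS and 38.4 with PBS). Sigirr, an inhibitory receptor of the family, was lower with LPS (-1.22).

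Of 6 cytokines and regulators of interleukin 17 producing cells, a list added after the values had been seen, 5 were at least 2-fold higher, with a median of 3.77 in mutant, 3.91 in knockout and 4.77 in wild type lung. Il17f averaged 132 with LPS and was listed at 0 with PBS, at least 89.2-fold higher where the group's floor is set at 3 reads. Il22 averaged 100 with LPS and was at 0 with PBS, at least 67.6-fold higher. Il17a averaged 50.5 with LPS and 0.43 with PBS (5.17).

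Chemokines were higher in nearly every family member measured. Beside Cxcl2 and Cxcl3, the neutrophil attractants Cxcl1 and Cxcl5 averaged 2750 and 498 with LPS and 14.7 and 2.58 with PBS. Their receptor Cxcr2 averaged 1430 with LPS and 233 with PBS (2.61). Cxcl15, a lung epithelial chemokine, was the one of 8 inside the fold, at 0.80. Of 16 CC chemokine genes 15 were at least 2-fold higher, with a median of 4.03. Among the 15, Ccl2, Ccl7, Ccl8, Ccl20 and Ccl24 reached the minimum mean only with LPS. Ccl20, which attracts cells with the receptor Ccr6, averaged 521 with LPS and 1.78 with PBS (7.55), against ratios of 6.09 in knockout and 4.74 in wild type lung. The monocyte attractant Ccl2 averaged 1160 with LPS and 6.89 with PBS (7.20). In contrast to its ligands, the receptor Cxcr3 was lower with LPS, at 3.93 against 13.1 with PBS (-1.52). The colony-stimulating factors were higher, with Csf2 at 631 with LPS and 17.7 with PBS (5.08) and Csf1 at 4740 with LPS and 646 with PBS (2.87), while Csf1r, the receptor on macrophages, had a ratio of -0.24.

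All 30 type I interferon response genes listed were at least 2-fold higher with LPS in mutant lung, from 1.97 for Bst2 to 7.14 for Rsad2, with a median of 4.28. Rsad2 encodes viperin, an antiviral enzyme, and averaged 35400 with LPS and 250 with PBS. Mx1, an antiviral GTPase, averaged 5190 with LPS and 40.4 with PBS (6.97). Ifit1, which binds viral RNA, averaged 24100 with LPS and 523 with PBS (5.52). Irf7, the factor that amplifies interferon transcription, averaged 8040 with LPS and 242 with PBS (5.05). Stat2 and Irf9, components of the interferon-activated transcription factor, had smaller ratios, 2.69 and 1.98.

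The ratios of the interferon response genes differed between the 3 genotypes in a regular order. The ratio of mutant lung was above that of wild type lung in all 30 genes and above that of knockout lung in 24, and the medians were 4.28 in mutant, 3.98 in knockout and 2.94 in wild type lung. Over all rows tested, 7929 of 15092 had a mutant ratio above the wild type ratio. Over the list the gap lay less in the LPS means than in the PBS means. The median log2 ratio of the mutant mean to the wild type mean was 0.28 with LPS, positive in 26 genes, and -0.90 with PBS, negative in all 30. Between mutant and knockout lung the median log2 ratio of the means was 0.24 with LPS and -0.08 with PBS. With PBS the wild type means therefore stood apart from those of both other genotypes. Irf7, for instance, averaged 242 in mutant, 270 in knockout and 842 in wild type lung with PBS. In Rsad2, Ifit2, Cmpk2, Isg20 and Trim30a the gap between mutant and wild type with LPS was at least as large as with PBS. In Ifit2 the ratio of mutant to wild type was 0.55 with LPS and -0.45 with PBS. Within each treatment the authors' deposited table calls no difference between mutant and wild type lung for these genes, the lowest adjusted p among the 30 being 0.972 with LPS and 0.924 with PBS by DESeq2. Unadjusted p-values were not used here, and the difference of the responses was not tested.

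**Figure D3:**
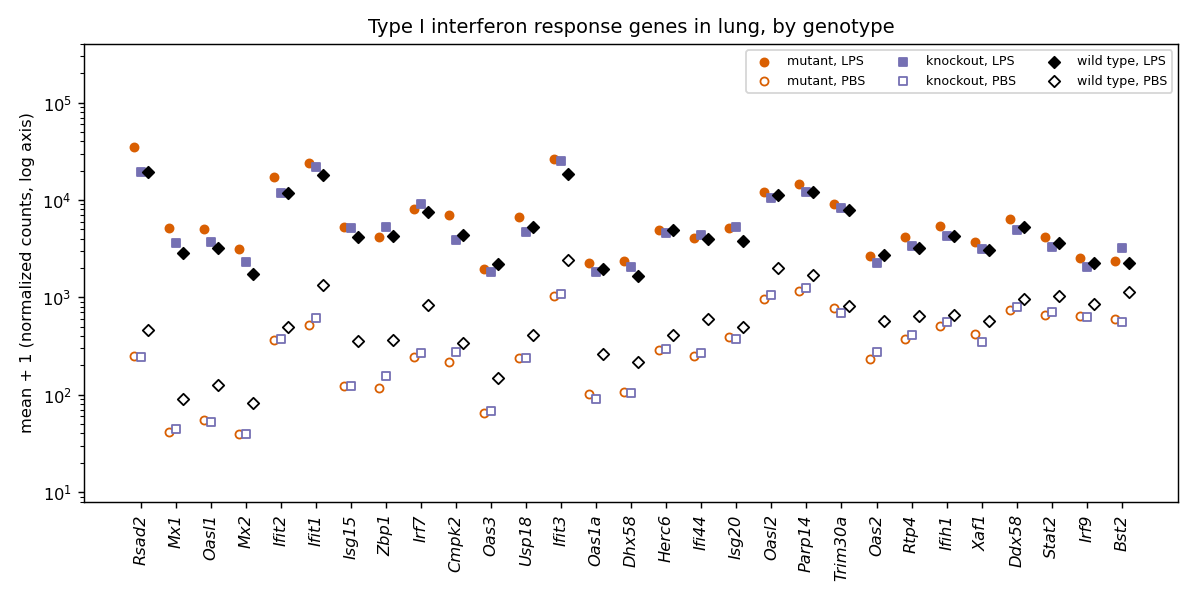
Authors' mean normalized counts plus 1 (log axis) of 29 of the 30 type I interferon response genes, ordered by the mutant ratio, in mutant (orange circles), knockout (purple squares) and wild type (black diamonds) lung. Filled points are LPS means of 3 libraries and open points PBS means of 2; the open black diamonds lie above the open orange circles for all 29 genes plotted, and the filled orange circles above the filled black diamonds for most genes.

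The interferon-induced GTPases of the GBP and IRG families, which attack membranes around intracellular microbes, were all at least 2-fold higher, 13 of 13, with a median of 4.27 in mutant lung against 3.95 in knockout and 3.53 in wild type lung. Gbp2 averaged 35800 with LPS and 1180 with PBS (4.92), and Gbp10 21900 with LPS and 379 with PBS (5.85). All 12 genes of the immunoproteasome and of MHC class I presentation were higher, with Nlrc5, the activator of class I genes, at 4950 with LPS and 301 with PBS (4.04) and B2m at 19800 with LPS and 8120 with PBS (1.29). MHC class II differed from this. Its 7 genes stayed inside the fold, between -0.74 for H2-DMa and 0.86 for Cd74, and their median of 0.24 becomes -0.26 if both groups are scaled to the same sum.

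Acute phase and antimicrobial genes were higher in all 17 members, with a median of 6.16, and several of them encode proteins that the liver secretes into blood. Saa3, the form made outside the liver, averaged 17300 with LPS and 101 with PBS (7.41). Lcn2, which binds bacterial siderophores, averaged 35300 with LPS and 806 with PBS (5.45). Hp, haptoglobin, averaged 20600 with LPS and 4470 with PBS (2.20). The fibrinogen chains Fga, Fgb and Fgg averaged 311, 176 and 445 with LPS and 2.83, 1.48 and 2.83 with PBS. Of 10 hepatocyte markers, Fgb among them, 9 were at least 2-fold higher with LPS in mutant lung, with a median of 3.67. Several of the 9, Alb, Fgb and Serpina1b among them, reached the minimum mean only with LPS. Such members could not have counted as lower, so the filter favours a higher count here. The summed mean of the list was 1079 with LPS and 306 with PBS, and Cyp2e1 made up most of the PBS sum. Alb, which encodes albumin, averaged 462 with LPS and 9.08 with PBS (5.52), whereas Cyp2e1 averaged 64.8 with LPS and 267 with PBS. In knockout lung Alb averaged 2460 with LPS and 110 with PBS, and in wild type lung 242 with LPS and 370 with PBS. The part of liver transcripts in the fibrinogen and serum amyloid ratios was not tested.

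Genes that promote clotting and genes that dissolve clots were both higher. Plat, the tissue plasminogen activator, averaged 3085 with LPS and 441 with PBS (2.80). F3, the tissue factor that starts coagulation, averaged 2230 with LPS and 493 with PBS (2.18). Thbd, the endothelial anticoagulant thrombomodulin, was lower at 1230 with LPS and 6610 with PBS (-2.42). In all, 8 of 12 tested genes of the list were at least 2-fold higher and 1 at least 2-fold lower. The selectins that catch leukocytes on activated endothelium were higher, with Selp at 3300 with LPS and 47.5 with PBS (6.09) and Sele at 222 with LPS and 5.54 with PBS (5.09). Icam1, a ligand of leukocyte integrins, averaged 20500 with LPS and 3190 with PBS (2.68), while the constitutive Icam2 averaged 588 with LPS and 1360 with PBS (-1.21).

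Markers of resting endothelium were lower, 12 of 17 by at least 2-fold and 1 higher, with a median of -1.58 in mutant lung against -2.58 in knockout and -2.07 in wild type lung. Tek, the receptor of angiopoietins, averaged 322 with LPS and 4400 with PBS (-3.77). Calcrl, which with Ramp2 forms the adrenomedullin receptor, averaged 730 with LPS and 9340 with PBS (-3.68). Ramp2 averaged 316 with LPS and 3750 with PBS (-3.56), whereas Adm, the ligand, averaged 1340 with LPS and 37.2 with PBS (5.13). Kdr, the main receptor of vascular endothelial growth factor, averaged 591 with LPS and 3666 with PBS (-2.63). The transcription factors Sox17 and Sox18 averaged 38.5 and 28.7 with LPS and 502 and 582 with PBS. Not all endothelial genes were lower. Cdh5, the cadherin of endothelial junctions, averaged 14700 with LPS and 8530 with PBS (0.79), and Robo4, a receptor that stabilises vessels, 4520 with LPS and 847 with PBS (2.41). In bulk tissue fewer cells of a type and less RNA per cell cannot be told apart.

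Receptors of vascular tone followed the same direction in part. Of 16 genes of G protein receptors and their ligands in lung vessels 7 were at least 2-fold lower (43.8%, beside 16.0% of all rows). At least 2-fold higher were 3 (18.8%, beside 15.5% of all rows). Ace, the angiotensin-converting enzyme of lung capillaries, averaged 2070 with LPS and 10100 with PBS (-2.29), and Ednrb, an endothelin receptor, 418 with LPS and 1710 with PBS (-2.03). S1pr1, the sphingosine 1-phosphate receptor that maintains the barrier, was higher at 9450 with LPS and 3090 with PBS (1.61). Angpt2, the ligand that opposes signalling through Tek, was higher at 1070 with LPS and 390 with PBS, a ratio of 1.45 in mutant lung against 2.40 in knockout and 2.63 in wild type lung.

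Prostanoid genes differed on the side of both synthesis and clearance. Ptges, which makes prostaglandin E2 from the product of Ptgs2, averaged 2200 with LPS and 256 with PBS (3.10). Hpgd, which inactivates prostaglandins, averaged 687 with LPS and 6670 with PBS (-3.28). The constitutive Ptgs1 had a ratio of 0.29. Among the receptors, Ptgir and Ptger4, for prostacyclin and prostaglandin E2, had ratios of 2.08 and 1.83. Tbxa2r, the thromboxane receptor, averaged 2.26 with LPS and 52.3 with PBS (-4.03), and Ptgfr 10.9 with LPS and 169 with PBS (-3.84).

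**Figure D4:**
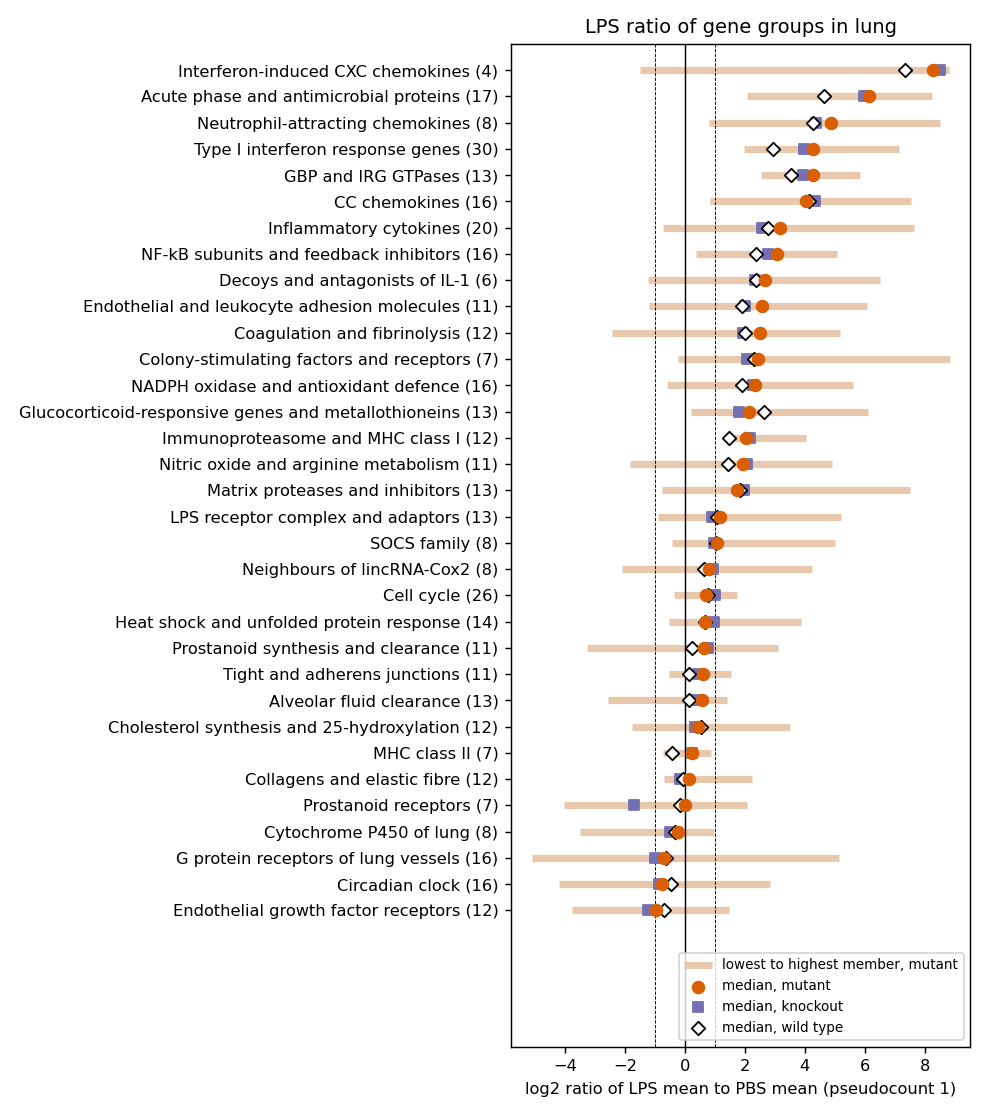
Log2 ratio of the LPS mean to the PBS mean (x axis, pseudocount 1) of 33 gene groups, with the number of members tested in parentheses. Orange circles, purple squares and open diamonds are the medians of mutant, knockout and wild type lung, the pale bar runs from the lowest to the highest member in mutant lung, and dashed lines mark 2-fold; mutant medians run from -0.96 (endothelial growth factor receptors) to 8.27 (interferon-induced CXC chemokines).

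Stress and metabolic lists differed from each other. Of 13 glucocorticoid-responsive genes and metallothioneins 10 were at least 2-fold higher, with the metal-binding Mt2 at 12300 with LPS and 177 with PBS (6.11) and Fkbp5, a chaperone of the glucocorticoid receptor, at 2500 with LPS and 255 with PBS (3.29). Of 16 genes of the NADPH oxidase and of antioxidant defence 13 were higher. Slc7a11, the cystine transporter, averaged 1400 with LPS and 27.6 with PBS (5.61), and the mitochondrial Sod2 9760 with LPS and 1060 with PBS (3.20). Nos2, the inducible nitric oxide synthase, averaged 1460 with LPS and 47.4 with PBS (4.92), while Nos3 of endothelium had a ratio of 0.14. Among matrix proteases and inhibitors Adamts4 averaged 1580 with LPS and 7.66 with PBS (7.51) and Timp1 1900 with LPS and 51.8 with PBS (5.17).

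Most genes of the heat shock and unfolded protein response were inside the fold, 9 of 14, with 5 higher, among them Atf3 (3.88). Of 12 genes of cholesterol synthesis and 25-hydroxylation 9 were inside it, 2 higher and 1 lower, and of 8 cytochrome P450 genes of lung 2 were lower and none higher. Over all rows 15.5% were higher and 16.0% lower.

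Circadian clock genes were more often lower than higher. Arntl and Npas2, which activate the clock's targets, averaged 166 and 46.6 with LPS and 22.4 and 8.70 with PBS. Several of their targets were lower, with Dbp at 187 with LPS and 1450 with PBS (-2.95), Hlf at 40.6 with LPS and 761 with PBS (-4.20) and Per3 at 257 with LPS and 1390 with PBS (-2.43). In all, 3 of 16 clock genes were at least 2-fold higher (18.8%, beside 15.5% of all rows). At least 2-fold lower were 8 (50%, beside 16.0% of all rows). The third of the clock genes at least 2-fold higher was Bhlhe40, at 2120 with LPS and 602 with PBS (1.81). The labels do not give the time of day at which tissues were taken. Of 26 cell cycle genes 6 were past the fold, all upward (23.1%, beside 15.5% of all rows), with Mki67 at 525 with LPS and 187 with PBS (1.49). The collagens and elastic fibre genes stayed inside the fold in 10 of 12, with Lox (2.23) and Col4a1 (1.26) above it (16.7%).

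Leukocyte markers separated into those that were higher and those that were not. Of 14 neutrophil genes 13 were at least 2-fold higher, with a median of 3.29. Their summed mean was 64199 with LPS and 4300 with PBS, of which Lcn2, also in the acute phase list, made up 35300 and 806. S100a8, a calcium-binding protein of neutrophil cytoplasm, averaged 3700 with LPS and 421 with PBS (3.13). Ngp and Elane, granule genes transcribed in immature neutrophils, averaged 6120 and 87.5 with LPS and 28.4 and 1.42 with PBS. Monocyte markers were higher in 7 of 10, with Ly6c2 at 1870 with LPS and 186 with PBS (3.32). The 1 at least 2-fold lower was Ace, at 2070 with LPS and 10100 with PBS (-2.29). The summed mean of the monocyte list was 23079 with LPS and 17573 with PBS. Platelet markers were higher in 7 of 8, with Ppbp at 880 with LPS and 242 with PBS (1.86). The platelet median was 1.45 in mutant, 1.93 in knockout and 2.17 in wild type lung.

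Lymphocyte markers were mostly inside the fold or below it. B cell genes had a median of -0.89, with Cd79a, part of the B cell receptor, at 121 with LPS and 405 with PBS (-1.73). Among T cell genes Cd3g averaged 27.6 with LPS and 75.1 with PBS (-1.41), whereas Ccr7, also carried by migrating dendritic cells, averaged 638 with LPS and 114 with PBS (2.47). NK cell genes split by function. The cytotoxic Gzmb averaged 1880 with LPS and 60.4 with PBS (4.94) and Prf1 211 with LPS and 46.4 with PBS (2.16), while the receptors Ncr1 and Klra8 had ratios of -0.67 and -0.91. Of 10 dendritic cell markers 2 were at least 2-fold higher (20%, beside 15.5% of all rows) and 4 at least 2-fold lower (40%, beside 16.0%). Batf3 was higher, at 45.2 with LPS and 8.52 with PBS (2.28). Xcr1, the chemokine receptor of type 1 dendritic cells, averaged 1.60 with LPS, about 4 reads, and 48.0 with PBS in mutant lung (-4.24). The Xcr1 ratio was -4.29 in knockout and -1.85 in wild type lung. For Xcr1 in mutant over wild type lung with LPS, the authors' deposited table gives an adjusted p of 0.477 by DESeq2.

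The defining markers of lung epithelium were present in both mutant groups, which matches the labelled tissue. Sftpc, the surfactant protein of alveolar type 2 cells, averaged 40200 with LPS and 27000 with PBS (0.57), and Scgb1a1 of club cells 30000 with LPS and 18400 with PBS (0.71). Sftpd, a surfactant protein that binds microbes, was past the fold at 12200 with LPS and 4500 with PBS (1.44). Etv5, a transcription factor of type 2 cells, was lower at 249 with LPS and 1300 with PBS (-2.38), the only 1 of 11 type 2 markers at least 2-fold lower. Cav1, the caveolin of type 1 cells and endothelium, was lower at 3410 with LPS and 11100 with PBS (-1.70), 1 of 3 among 10 type 1 markers. The 1 type 1 marker at least 2-fold higher was Pdpn, at 3230 with LPS and 1570 with PBS (1.04). Ager, another type 1 marker, was inside the fold at 15100 with LPS and 11300 with PBS (0.42). Of 11 club and ciliated cell markers only Bpifa1 was past the fold. Bpifa1, a secreted protein of upper airways, averaged 312 with LPS and 2150 with PBS (-2.78), against ratios of -0.25 in knockout and -0.97 in wild type lung. Fibroblast markers had a median of -0.56, with 3 of 10 at least 2-fold lower. The lowest was Wnt2, a ligand made by lung fibroblasts, at 14.6 with LPS and 196 with PBS (-3.66). Cardiac muscle, which in mice also sheathes the pulmonary veins, had markers inside the fold in 9 of 10.

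**Figure D5:**
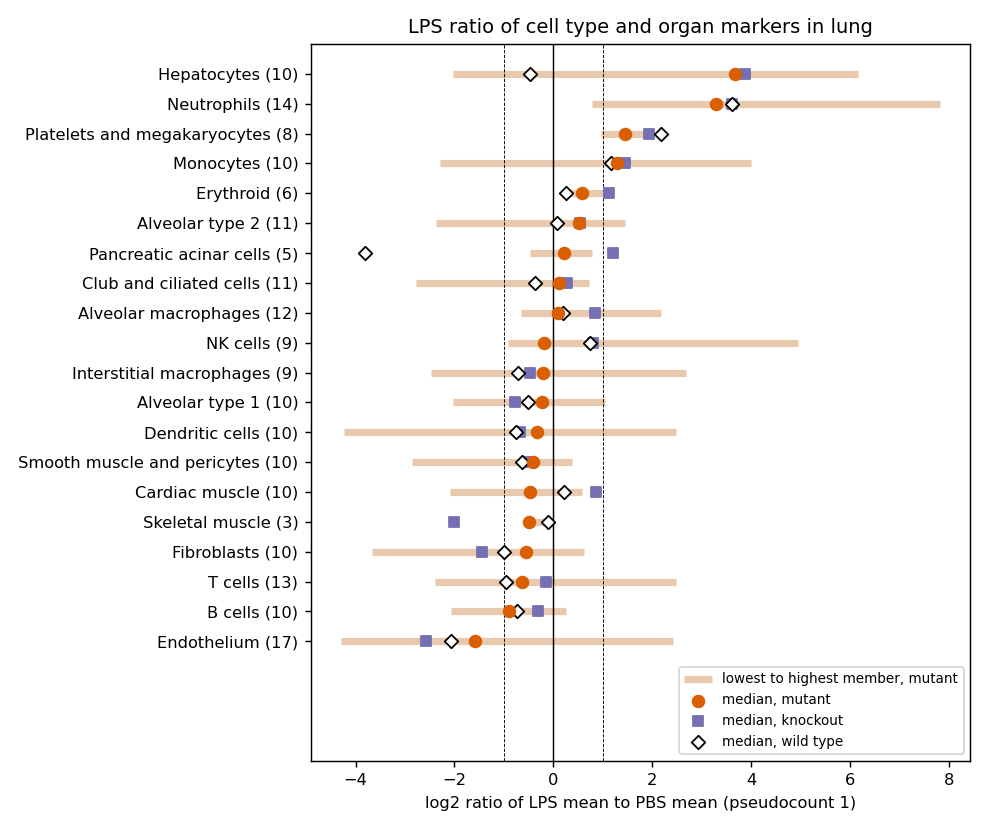
Log2 ratio of the LPS mean to the PBS mean (x axis, pseudocount 1) of markers of 20 cell types and organs, with the number of members tested in parentheses. Orange circles, purple squares and open diamonds are the medians of mutant, knockout and wild type lung, the pale bar runs from the lowest to the highest member in mutant lung, and dashed lines mark 2-fold; endothelium has the lowest mutant median (-1.58), and hepatocyte and pancreatic markers have wild type medians (-0.48 and -3.81) far from those of the mutant.

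Set beside the other genotypes, 1946 of the rows at least 2-fold higher in mutant lung were also at least 2-fold higher in knockout lung, 83.3% of the mutant and 75.5% of the knockout rows. With wild type lung 1811 were shared, 77.5% of the mutant and 86.3% of the wild type rows. Downward, 1967 were shared with knockout (81.3% of the mutant and 72.9% of the knockout rows) and 1663 with wild type lung (68.7% of the mutant and 77.1% of the wild type rows). In the other genotypes 16.9% and 17.7% of rows were past the fold upward and downward in knockout lung, and 13.9% and 14.3% in wild type lung. The rows past the fold in mutant lung alone were 240 upward (10.3% of the mutant rows) and 311 downward (12.9%). Their median size was 1.16 in both directions, but some lay far from the fold, such as Ucp1 (-5.37) and Eif2s3y (-6.26).

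The mutant response was above the wild type response by at least 1 on the log2 scale in 438 of 15298 rows (2.86%) and below it by as much in 290 (1.90%). Against knockout lung the counts were 399 (2.59%) and 398 (2.58%) of 15414 rows. Among rows with a mean of 100 or more in any of the 4 groups, and with Xist, Tsix and Y chromosome rows left out, the largest positive differences were those of Alb, Cela2a, Pnlip, Amy2a4, Fgb and Ctrb1, genes of liver and exocrine pancreas. For the pancreatic genes the wild type PBS mean stood apart. Pnlip, pancreatic lipase, averaged 13.4 with LPS and 8.48 with PBS in mutant lung, and 10.3 with LPS and 158 with PBS in wild type lung. The summed mean of the 10 pancreatic markers was 77.9 with LPS and 69.7 with PBS in mutant lung, and 62.6 with LPS and 1072 with PBS in wild type lung. The liver genes differed in the mutant groups as well. Alb averaged 462 with LPS and 9.08 with PBS in mutant lung, and 242 with LPS and 370 with PBS in wild type lung, and Fgb 176 with LPS and 1.48 with PBS in mutant lung, and 86.4 with LPS and 19.6 with PBS in wild type lung. Another gene with a large difference was Prg4, the lubricant protein of joint surfaces and a neighbour of lincRNA-Cox2, which averaged 453 with LPS and 115 with PBS in mutant lung but 114 with LPS and 226 with PBS in wild type lung. Knockout lung had the same Prg4 ratio as the mutant, 1.97, and the authors' deposited table gives an adjusted p of 0.972 for mutant over wild type with LPS.

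With the same rows left out, the largest negative differences were those of Zfp69, Car3, Ankrd63, Bpifa1, Adipoq and Cd300lb. Zfp69, a KRAB zinc finger gene, averaged 13.5 with LPS and 49.3 with PBS in mutant lung (-1.79), 36.8 with LPS and 37.2 with PBS in knockout lung (-0.01), and 135 with LPS and 45.6 with PBS in wild type lung (1.54). It is also among the few genes that the authors' deposited table calls between mutant and wild type lung with LPS, at a log2 fold of -2.79 (adjusted p = 0.00755). Car3, carbonic anhydrase 3, averaged 106 with LPS and 614 with PBS in mutant lung (-2.52), and 300 with LPS and 364 with PBS in wild type lung (-0.28). Car3 and Adipoq are in the fat list given above.

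With LPS the authors' deposited table calls 12 rows between mutant and wild type lung at an adjusted p under 0.05, 7 higher (0.0417% of 16774) and 5 lower (0.0298%), one of the 5 being lincRNA-Cox2. With PBS the single call is lincRNA-Cox2 itself (0.00524% of 19083). The X-linked ubiquitin ligase gene Mid1 is called on both of its rows. The larger row averaged 2019 with LPS and 384 with PBS in mutant lung, and 407 with LPS and 160 with PBS in wild type lung, with a log2 fold of 2.19 for mutant over wild type with LPS (adjusted p = 2.41e-05). Since sex-linked transcripts differ between these groups, and Mid1 is on the X chromosome, their part in this call was not tested. Zbtb32, a transcriptional repressor of lymphocytes, averaged 65.2 with LPS and 19.5 with PBS in mutant lung, and 22.0 with LPS and 19.4 with PBS in wild type lung (log2 fold 1.51, adjusted p = 0.00575). Knockout lung had nearly the same Zbtb32 means as the mutant, 61.5 with LPS and 19.2 with PBS. Ide, which encodes the insulin-degrading enzyme, was called lower in mutant lung, with 477 with LPS and 526 with PBS, against 895 with LPS and 797 with PBS in wild type lung (log2 fold -0.90, adjusted p = 0.0154). Ide had a ratio of -0.14 in mutant and 0.17 in wild type lung, and its means stood apart between the genotypes in the same direction with PBS. Slc25a37, a mitochondrial iron importer, is listed in 2 rows, with means of 1170 with LPS and 663 with PBS in mutant lung in the larger; the smaller, the one called, had means under the minimum in mutant lung, 3.22 with LPS and 1.5 with PBS, against 34.1 with LPS and 6.28 with PBS in wild type lung (log2 fold -2.97, adjusted p = 1.3e-05).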

How the data were processed

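Lung tables were read as the authors deposited them. The submitters' processing notes list the mm10 build, the aligners STAR 2.5.3a and Bowtie2, DESeq2, bedtools and SAMtools, but neither their order nor settings, and the labels' protocols name mRNA kits. Per the file headers, the deposited values are group means of normalized counts, a signal of the kind DESeq2 gives when it scales each library by a size factor, and, for genotype comparisons, log2 folds and adjusted p-values, each used as the authors' score. Of 19476 lines, 6 with broken cells were left out, and 242 symbols are repeated. The spleen table was not used. No source says that strand was used in counting, so reads of overlapping antisense genes, and of near-identical copies, may be mixed.

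From the means, log2((LPS + 1)/(PBS + 1)) was computed with Python 3.11.15 and pandas 2.3.3 for rows with a mean of 10 or more in either group. Steps between low means gave library totals, checked on simulated data, the floor of 3 reads, and 95% Clopper-Pearson intervals of folds, which cover counting error only. A difference of responses of 1 (log2) and an adjusted p under 0.05 were the other limits. The members and the 54 gene lists, with 6 added later, were chosen with earlier results of these data known. Genes named are lincRNA-Cox2 and Ptgs2, the 10 highest and 10 lowest ratios, up to 3 at either end of each list and its highest mean, the 6 largest differences from wild type in each direction (mean of 100 or more), and further list members, authors' calls and Prg4 chosen after their values were seen. Chromosomes are from GENCODE and RefSeq, promoters from RefSeq. With group means only, the planned edgeR test could not be run. Some items are not reported here.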

Additional observations from a re-analysis of the deposited data

How the results depend on the processing

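Only group means were used, so no library could be left out and nothing here shows how far a ratio rests on 1 library. No paired analysis was possible because the columns carry no replicate. Counts of rows past the fold in mutant lung moved with the fold limit, to 3788 higher and 4063 lower at 1.5-fold and 1031 higher and 608 lower at 4-fold. Scaling both groups to the same sum, an alternative chosen after seeing the data, gave 1483 higher and 4462 lower. A pseudocount of 0.1 or 5, no minimum mean, a minimum of 50, centring on the median and leaving out X and Y rows kept both counts within 1.5 times. Counts of responses above and below wild type were 287 and 149 with a pseudocount of 5, 88 and 25 at a difference of 2, and 215 and 111 at a minimum mean of 50. Against knockout they were 399 and 398. The authors' calls numbered 16 with LPS and 1 with PBS at an adjusted p up to 0.1. No median or named gene past the fold changed sign. Of 60 list medians 8 changed sign under scaling to the same sum, each under 0.5 in size before it, and at most 2 under each other setting, among them NK cells, whose median was 1.14 at a minimum mean of 50. Ratios of genes with a few reads in 1 group are limited by depth, as their intervals show.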

Other observations

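Gene families chosen after the values had been seen are given here for mutant lung. Of 330 zinc finger genes named Zfp that passed the minimum mean, 92 were at least 2-fold lower with LPS and 12 at least 2-fold higher, with a median log2 ratio of -0.40, against 16.0% of all rows lower and 15.5% higher. The medians were -0.39 in knockout and -0.27 in wild type lung. Of 53 translation initiation factor genes and their regulators 11 were at least 2-fold higher (20.8%, beside 15.5% of all rows), with a median of 0.62, among them Eif2ak2, the interferon-induced kinase that stops initiation on viral RNA, at 3220 with LPS and 308 with PBS. The 83 cytosolic ribosomal protein genes had a median of 0.49 in mutant lung, inside the fold in 82 of them, which becomes -0.02 if both groups are scaled to the same sum. Their median was 0.91 in knockout and 0.10 in wild type lung.

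Genes on the X chromosome that escape inactivation had a median ratio of 0.78 in mutant lung, 0.34 in knockout and 0.28 in wild type lung, and Ddx3x averaged 7010 with LPS and 3060 with PBS in mutant lung.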
